A study of Mus musculus with 6 samples.

Results

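FXR chromatin immunoprecipitation sequencing was examined in liver lacking BCL6 in hepatocytes, and the report covers every FXR peak listed for that genotype. The peaks were all rows of the LKO peak list, 12495 of the 32535 peaks listed for both genotypes, and no peak was left out. The LKO mice were male, of strain C57BL/6 and genotype Alb-cre, Bcl6 fl/fl. The floxed Bcl6 alleles were shared with the WT animals (Bcl6 fl/fl), and the albumin promoter drove Cre, so deletion was directed to hepatocytes. Whether Bcl6 was also deleted in other liver cells was not examined here. The age of the mice was not given in the sources used here. LKO liver contributed 2 FXR ChIP libraries of 21287263 and 22637613 tags and 1 input library of 6935001 tags. A tag is a uniquely aligned read, with at most 1 kept per position. Nothing says whether the libraries came from separate animals, so their spread may be partly technical.

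FXR (encoded by Nr1h4) is a nuclear receptor that binds bile acids and, mostly as a heterodimer with RXR, attaches to pairs of AGGTCA-like hexamers in DNA. The classical arrangement is an inverted repeat with a 1-base spacer, termed IR1. In liver, FXR is known to induce bile salt export and the repressor SHP (Nr0b2), and to lower bile acid synthesis. BCL6 is a zinc finger repressor whose hepatic sites lie near many metabolic genes. Binding alone does not say whether a gene is induced, repressed or unaffected.

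Sites from the mm10 genome (GRCm38.p6 reference, plus strand) show what the motif looked like at the peaks described below. IR1 was searched as AGGTCANTGACCT, which reads the same on both strands, and 12 bases were scored. Capitals mark the paired hexamers, the lower-case base between them is the spacer, and 8 flanking bases are given on each side. Substitutions are written against the motif, counted from 1 at its 5′ end. These sites were taken from the strongest peaks of bile acid and feedback genes and from the strongest peaks of the whole list.
Fgf21, chr7:45597817-45597829, no mismatch: gatctgggAGGTCAtTGACCTgccagcct
Abcb11, chr2:69342667-69342679, A10G: ttgcttatAGGTCAaTGGCCTaaagtcca
Abcb4, chr5:8928745-8928757, C11T: gcagagagAGGTCAaTGATCTttacaggt
Slco1b2, chr6:141629430-141629442, T4A: atttgtgtAGGACAgTGACCTgaagagat
Fgf15, chr7:144898495-144898507, G3T: ctacctgcAGTTCAaTGACCTctgcatgc
Zfp36l1, chr12:80084186-80084198, T13C: atgctcctAGGTCAcTGACCCctactagc
Slc9a8, chr2:167416421-167416433, T4C: tgaccgggAGGCCAaTGACCTtcacagaa
Fcna, chr2:25628844-25628856, A6G: gtccctccAGGTCGcTGACCTccctctgt
Mafg, chr11:120630735-120630747, A1G and T13A: tctgcctaGGGTCAgTGACCAcagggcca
Cyp2c70, chr19:40226964-40226976, A1C and T4G: tagtgaccCGGGCAtTGACCTatcattga
Slc51b, chr9:65422948-65422960, A1G, C5G and T13C: ccagtccaGGGTGAaTGACCCcacgaatg
Slc51b carried 3 mismatches and was therefore outside the limit of 2 used for counting, although its site lay 2 bp from the centre of a strong promoter peak.

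Peak values were regularized log2 tags, one value per library and peak, on a scale shared by the 3 LKO libraries. The median peak had 4.87 in ChIP replicate 1, 4.68 in ChIP replicate 2 and -0.03 in the input. The median difference between ChIP and input was 4.51 for replicate 1 and 4.32 for replicate 2, and the smallest differences at any peak were 1.27 and 1.37. The list had been filtered on this contrast, so the size of the difference describes the list and tests nothing. Input values fell into bands, with 72.0% of peaks below 1 and 17.97% between 1 and 2, and shrinkage in the transform keeps the lowest band from showing how far input lay below ChIP. The peaks were all 205 bp wide, and the median deposited peak score of 17.1 tags per 10000000 pooled tags corresponds to about 75.1 tags in the pooled ChIP libraries.

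The ChIP libraries differed little where binding was strong. Replicate 2 lay 0.17 below replicate 1 at the median peak on the log2 scale. The SD of their difference was 0.60 in the weakest quintile of peaks, 0.44 in the middle quintile and 0.27 in the strongest quintile, strength being the mean of the 2 ChIP values. A gap of this size between single weak peaks is therefore within the spread between libraries. Below, paired values are those of replicates 1 and 2 in that order, and a gene's value is that of the strongest peak assigned to it by the authors, who used the nearest transcription start site (TSS). Input is printed for some peaks only, and where it is left out it was not always low.

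**Figure D1:**
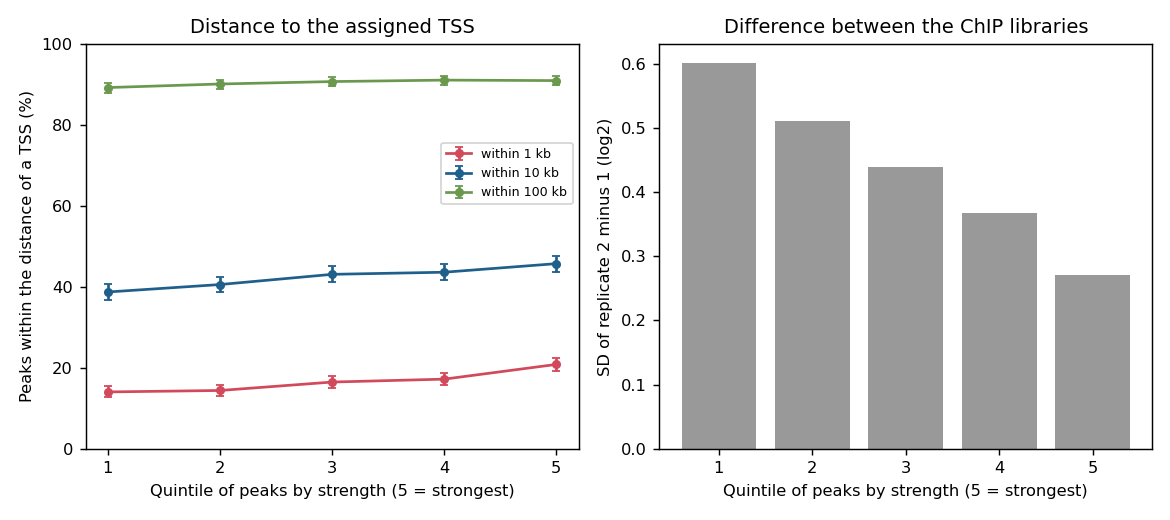
Left, percent of LKO FXR peaks within 1, 10 or 100 kb of the assigned TSS (y axis) in quintiles of peak strength (x axis, 5 strongest), with 95% Wilson intervals. Right, SD over peaks of the log2 difference between the 2 ChIP libraries in the same quintiles, which falls from 0.60 to 0.27 while the share within 1 kb rises from 14.0% to 20.8%.

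FXR peaks lay mostly away from promoters. Introns held 5923 peaks (47.4%, 95% Wilson interval 46.5 to 48.3%), of which 2467 were in a first intron, and intergenic sequence held 4287 (34.3%, 33.5 to 35.1%). Promoters held 1406 peaks (11.3%, 10.7 to 11.8%), exons 380, transcript ends 233, 3′ UTRs 121, 5′ UTRs 89 and non-coding transcripts 56. The median distance to the assigned TSS was 14.1 kb, with quartiles of 3.01 and 41.2 kb. Within 1 kb lay 16.6% of peaks, within 10 kb 42.4% and within 100 kb 90.4%. Intervals cover counting of peaks only.

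Promoter peaks were somewhat stronger than distal ones. The median ChIP values were 5.00 and 4.84 in promoters, 4.84 and 4.64 in introns, and 4.85 and 4.66 between genes. Of promoter peaks, 25.9% (23.7 to 28.2%) belonged to the strongest quintile of all peaks, against 19.0% (17.98 to 19.98%) of intron peaks and 19.0% (17.9 to 20.2%) of intergenic peaks. Exon peaks were at 25.3% (21.2 to 29.9%). The median distance to a TSS was 15.7 kb in the weakest quintile and 11.7 kb in the strongest.

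The peaks were assigned to 6877 genes, and 3 peaks had no gene name. A single peak was assigned to 4070 genes (59.2%), 2 peaks to 1500 genes, 3 to 640 and 4 to 306. The remaining 361 genes (5.25%) had 5 or more peaks and together held 2278 peaks, 18.2% of the list. Protein-coding genes received 10681 peaks and non-coding RNA genes 1708. Peaks were often near each other, since 5078 peaks (40.6%) had another peak within 10 kb. Genes with 5 or more peaks were long, with a median span of 76.8 kb. The protein-coding genes with a peak had a median span of 28.5 kb and those without had 14.3 kb, and the part of gene span in these counts was not tested.

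The genes with most peaks included several regulators. The non-coding RNA gene Gm30173 had 13, spread over 154 kb, with its strongest at 6.33 and 6.10. Epas1 (HIF2A, a hypoxia-regulated transcription factor), Nectin1 (a cell adhesion molecule) and Rreb1 (a zinc finger transcription factor) had 12 each. Foxp1 (a forkhead factor), Gse1, Slc6a6 (the taurine transporter), Zfp608 and Cdh26 had 11 each. The strongest peak of Slc6a6 reached 7.99 and 7.84, the highest of these genes. All 11 peaks assigned to Cdh26 lay 149 to 308 kb downstream of its TSS, so the name there reflects the nearest start site only.

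Among all genes, peaks were strongest near a group of loci that is not led by bile acid genes. The strongest peak of the list lay 3.07 kb upstream of Ptgds, which encodes a prostaglandin D synthase, with 9.45 and 9.50 in the ChIP libraries and 1.93 in the input. On a linear scale this peak was 26.5-fold above the median peak, and the peak at rank 20 was 13.6-fold above it. The next was 5.33 kb upstream of Slc9a8, an organellar sodium/proton exchanger, at 8.92 and 9.0 with 0.60 in the input. The libraries differed by at most 0.17 at any of the 20 strongest peaks. All 20 overlapped a WT peak, as did 9918 of all 12495 LKO peaks. Of the 20, 16 lay within 10 kb of the assigned TSS, and 6 were in promoters, 6 in introns, 7 between genes and 1 at a transcript end.

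Promoter peaks of the 20 strongest were those of Wwc2 (8.94 and 8.95), Usp2 (8.87 and 8.94), Cks2 (8.84 and 8.71), Mcmbp (8.64 and 8.74), Fcna (8.69 and 8.65) and C3 (8.54 and 8.55). Usp2 encodes a deubiquitinase with rhythmic expression, Fcna a ficolin of innate immunity, and C3 the central complement protein. Intron peaks were those of Arhgef7 (8.93 and 8.87), Ccdc38 (8.96 and 8.79), Fam49b (8.89 and 8.86), Zc3h6 (8.72 and 8.75), Slc8b1 (8.67 and 8.54) and Mafg (8.61 and 8.50). MAFG is a small MAF protein known to repress bile acid synthesis genes. The Ccdc38 peak was 2.77 kb from that TSS and 3.37 kb from the TSS of Amdhd1, a histidine catabolism enzyme.

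The peaks outside promoters and introns were assigned to Gstt2, 2.67 kb upstream (8.82 and 8.70), to the end of Zfp36 (8.72 and 8.63), to Nol4l, 24.7 kb upstream (8.61 and 8.68), and to A630001O12Rik, 9430078K24Rik and Ly86 at 114, 62.7 and 193 kb. ZFP36 is an mRNA-decay protein related to ZFP36L1, and the nearest protein-coding TSS to the 9430078K24Rik peak was that of Zfp36l1 at 114 kb.

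Some of these loci were also high in the input. Input exceeded its 95th percentile over all peaks (2.49) at 6 of the 20: Fam49b (6.21), Zc3h6 (5.31), Usp2 (4.51), Wwc2 (3.72), Mcmbp (3.43) and Slc8b1 (2.58). The other 14 had at most 1.93. Within a band, input values rose with the ChIP values, being 2.47 at Angptl4 (ChIP 5.49 and 5.50) and 2.58 at Slc8b1. Slc8b1 thus passed the limit narrowly, in a band that lies on both sides of it. With ChIP minus input in place of ChIP, 8 of the 20 stayed among the 20 highest. The input came from a single library, and its part in the ranking was not tested.

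**Figure D2:**
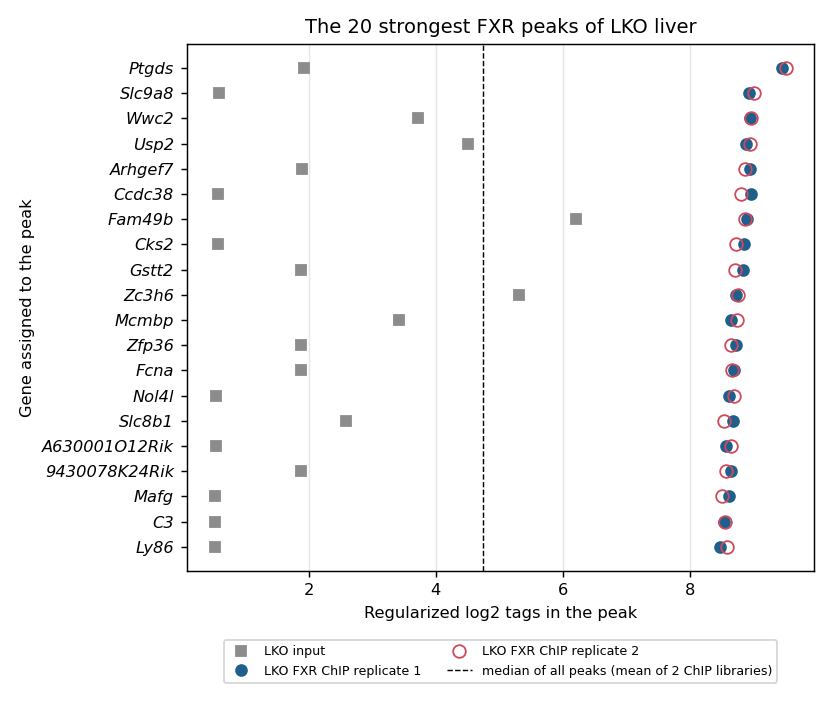
Regularized log2 tags (x axis) in the 2 ChIP libraries and the input for the 20 strongest FXR peaks of LKO liver, named by assigned gene (y axis). The dashed line is the median of all peaks (4.75), and the 2 ChIP points lie between 8.46 and 9.50 at every locus while input runs from 0.53 to 6.21.

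Repetitive sequence stood out at a few of the strongest peaks. The base at each position was compared with the base a fixed number of positions away (6 to 60), and the highest share of equal bases was taken. This share had a median of 33.9% over all peaks and was 50% or more in 51 peaks (0.41%), 3 of them among the 20 strongest. It reached 94.9% at a shift of 27 bases in the Fcna peak, 55.1% at 38 bases in the Arhgef7 peak and 54.7% at 15 bases in the Ptgds peak. Both peaks below are given whole because they rank 1st and 13th of all peaks and touch no annotated exon. Capitals mark the hexamers of IR1 sites in the Fcna peak, of which there were 3, and the 8-base word CACTCAGG in the Ptgds peak, which occurred 5 times. Both are from the plus strand of mm10.
Fcna, chr2:25628743-25628947: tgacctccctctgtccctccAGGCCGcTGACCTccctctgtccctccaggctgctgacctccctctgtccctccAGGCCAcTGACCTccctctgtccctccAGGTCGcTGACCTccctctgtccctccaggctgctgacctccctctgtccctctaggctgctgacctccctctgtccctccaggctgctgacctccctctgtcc
Ptgds, chr2:25472715-25472919: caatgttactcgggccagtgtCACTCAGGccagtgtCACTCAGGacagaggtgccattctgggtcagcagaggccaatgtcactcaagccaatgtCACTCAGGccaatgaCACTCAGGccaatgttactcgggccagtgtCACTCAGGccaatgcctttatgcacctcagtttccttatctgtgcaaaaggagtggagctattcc
No IR1 site with at most 2 mismatches was found in the Ptgds peak. The part of repeated sequence in these values was not tested.

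Genes of bile acid synthesis carried FXR peaks in 13 of 17 cases (76.5%), against 27.1% of all 21631 protein-coding genes on the same chromosomes. Within 10 kb of the TSS the counts were 10 of 17 and 16.5% of all genes. The median of the strongest peak per gene was 4.98, close to the 5.06 over all genes with a peak, so most of these genes were not among the strongly bound. The strongest was in Akr1d1, the steroid reductase of the pathway, at 7.69 and 7.36, followed by Cyp27a1, the sterol hydroxylase that opens the alternative pathway, at 6.91 and 6.83. Cyp2c70, which makes muricholic acids in mice, reached 6.49 and 6.04.

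Several sterol hydroxylases had peaks below the median strongest peak over all genes (5.06). Cyp7a1, the rate-limiting enzyme, had 3 peaks, the strongest 17.4 kb downstream at 4.69 and 4.95, and another 3.01 kb upstream at 4.43 and 4.39. Cyp8b1, needed for cholic acid, had 1 peak 9.15 kb upstream at 4.32 and 4.23. Cyp7b1, an oxysterol hydroxylase of the alternative pathway, had 2 intron peaks with the stronger at 4.88 and 4.76. Hsd3b7, which acts after the first hydroxylation, was at 4.25 and 3.70, and its name was absent from the WT assignments.

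Side chain and conjugation enzymes followed. The bile acid-CoA ligase Slc27a5 was at 5.65 and 5.35, the racemase Amacr at 5.26 and 5.46, and the peroxisomal enzymes Hsd17b4, Acox2 and Scp2 at 5.48 and 4.99, 5.04 and 4.92, and 4.38 and 4.34. Slc27a2, an acyl-CoA synthetase, was at 5.07 and 4.73. Cyp39a1, Akr1c6, Baat and Acot8 had no assigned LKO peak, and of these Akr1c6 and Baat had one in the WT list.

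Bile acid transporters were bound in 14 of 19 cases, 11 within 10 kb of the TSS, and their median strongest peak was 5.64. Several genes of canalicular export had strong peaks, while the exporter genes Abcb1a, Abcg2 and Abcg5 had no assigned LKO peak. Abcb4, the phospholipid floppase, had 6 peaks, the strongest in an intron 35.0 kb downstream of the TSS at 7.88 and 7.89 (input 2.56). Abcb11, the bile salt export pump, had a single peak 55 bp upstream of its TSS at 7.05 and 7.30 (input 2.53), and Atp8b1, an aminophospholipid flippase, reached 7.53 and 7.42 at its promoter (input 3.03). Abcc2, which exports conjugates, was at 5.89 and 5.91 (input 2.99), and the sterol exporter gene Abcg8 was at 5.78 and 5.63.

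On the sinusoidal side, Slc51b, a subunit of the OST exporter, had 1 promoter peak 183 bp upstream of the TSS at 7.94 and 7.74. Its partner Slc51a was at 4.35 and 4.98. Slc10a1, which encodes the uptake transporter NTCP, had its stronger peak 7.34 kb upstream at 6.97 and 6.89. The organic anion uptake genes Slco1b2, Slco2b1 and Slco1a4 were at 5.57 and 5.60, 4.42 and 4.12, and 3.99 and 3.62. Input at the Slco1b2 peak was 3.36. Abcc4 (4.91 and 4.45), Ephx1 (5.12 and 4.55) and Fabp6, an ileal bile acid binding protein (3.93 and 3.92), completed the bound genes. Abcb1a, Abcc3, Abcg2, Abcg5 and Slco1a1 had no assigned LKO peak. Abcg5 shares its promoter region with Abcg8, where a peak 437 bp downstream of the Abcg8 TSS was at 5.12 and 4.20.

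Feedback genes held some of the strongest FXR binding. Of 16 genes 12 had a peak, 8 within 10 kb, with a median strongest peak of 6.41. Mafg ranked 18th and Nr0b2 47th of all 12495 peaks. Nr0b2, encoding the corepressor-recruiting receptor SHP, had a peak at its transcript end, 4.26 kb downstream of the TSS, at 8.27 and 8.35, a promoter peak 311 bp upstream at 7.58 and 7.40, and a peak 10.1 kb downstream at 5.53 and 5.36. The mRNA-decay gene Zfp36l1 had 5 peaks, the strongest 28.8 kb downstream at 7.76 and 7.67 and another at its promoter at 7.03 and 6.95.

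Receptors, partners and hormones of this circuit were bound over a wide range. Fgf21, a fasting-responsive hepatokine, was at 6.94 and 6.99 in a peak with the exact IR1 printed above, 17.7 kb downstream of its TSS. Nr5a2 (LRH-1) was at 6.78 and 7.06 in a peak 60.2 kb upstream, and Rxra, the heterodimer partner, at 6.09 and 5.69 in a peak 80.0 kb upstream. Fgf15, an intestinal hormone that represses bile acid synthesis, had an intron peak at 5.87 and 5.26 in this liver chromatin. Hnf4a was at 4.78 and 4.88, Klb (the co-receptor for FGF15) at 4.70 and 4.0, Nr1h4 itself at 4.50 and 3.25, and the demethylase gene Kdm1a at 3.21 and 4.03. For Fgf15, Klb, Nr1h4 and Kdm1a the libraries lay apart by more than the SD of the weakest quintile. Rxrb, Rxrg, Fgfr4 and Gps2 had no assigned LKO peak.

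**Figure D3:**
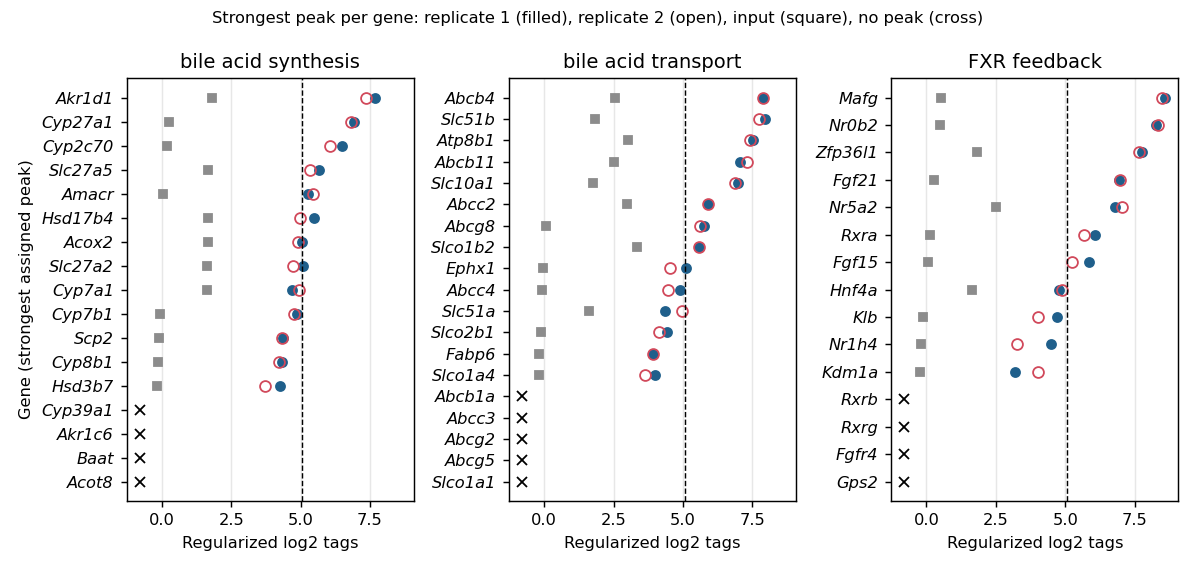
Regularized log2 tags (x axis) of the strongest FXR peak of the genes reported here (y axis) for bile acid synthesis, bile acid transport and FXR feedback, with filled and open circles for ChIP replicates 1 and 2, squares for input and crosses for genes with no assigned peak. The dashed line marks the median of the strongest peak over all genes with a peak (5.06), which 3 synthesis genes, Akr1d1, Cyp27a1 and Cyp2c70, exceeded by about 1 or more.

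Bcl6 itself had 1 LKO peak, 5.42 kb upstream of its TSS, at 3.99 and 3.44 (input -0.21), rank 12160 of 12495. It overlapped a WT peak. FXR ChIP does not measure Bcl6 RNA, and the peak lies outside the gene, so the deletion could not be checked in these libraries. Of 10 genes for BCL6 and its corepressors 4 had a peak, among them Tbl1xr1 (7.15 and 7.13), Bcor (7.08 and 6.97, at 321 kb from its TSS) and Bcl6. Bcl6b, Ncor1, Hdac3, Mta3, Ctbp1 and Sirt1 had none.

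Listed liver genes of most other functions were bound about as often as bile acid genes. Over all 22 lists, 328 of 438 genes (74.9%) had an LKO peak and 266 (60.7%) had one within 10 kb of the TSS. The lowest shares were those of BCL6 and its corepressors (4 of 10, interval 16.8 to 68.7%) and autophagy and lysosome (54.5%, 34.7 to 73.1%). The highest were those of hepatocyte transcription factors and clock genes (18 of 20 in each, 69.9 to 97.2%). The median span of the listed genes was 23.1 kb against 17.3 kb over all protein-coding genes. The lists were made of genes known to act in liver, the intervals of most lists overlap, and no difference between lists was tested.

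**Figure D4:**
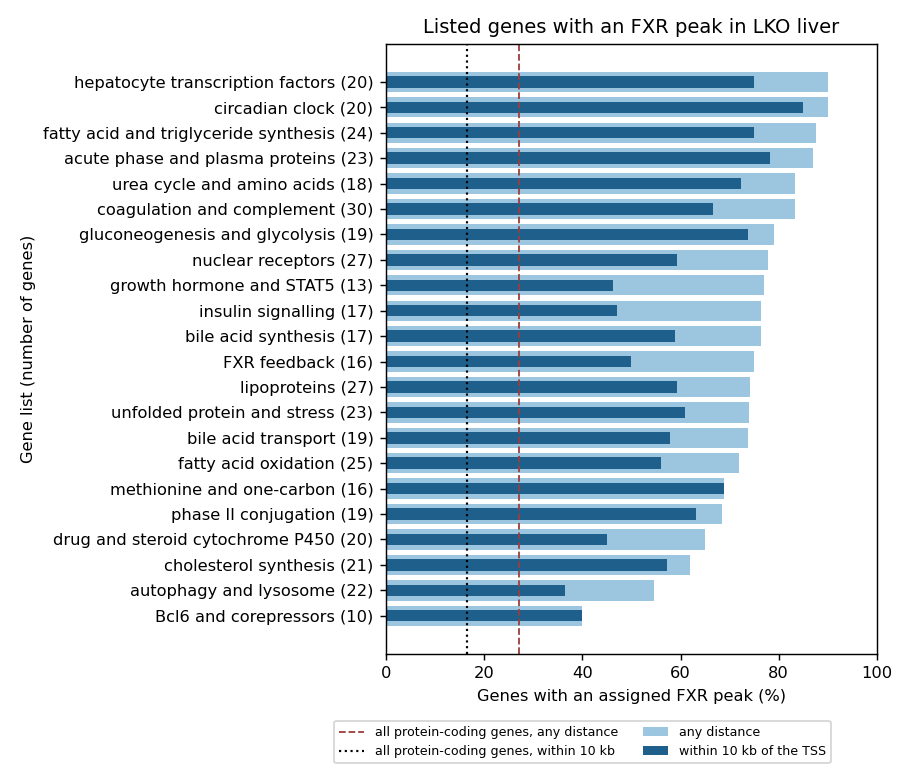
Percent of genes in each list (y axis, number of genes in brackets) with an FXR peak in LKO liver at any distance (light bars) or within 10 kb of the TSS (dark bars). Lines give the same shares over all 21631 protein-coding genes (27.1% and 16.5%), and all bars of either kind lie beyond their own line.

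Lipid genes held strong peaks. Of 27 lipoprotein genes 20 were bound, led by the HDL receptor gene Scarb1 (8.34 and 8.35, 10 peaks), Lcat, which esterifies cholesterol on HDL (7.64 and 7.53), and the remnant receptor gene Lrp1 (7.18 and 7.06, input 3.02). Genes with no LKO peak included Apoa4, Apoh, Apom, Mttp and Vldlr. Of 24 genes of fatty acid and triglyceride synthesis 21 were bound, led by the lipid droplet gene Plin2 (7.71 and 7.90, 7 bp upstream of its TSS), fatty acid synthase Fasn (8.04 and 7.57, input 3.70) and the lipogenic regulator Thrsp (7.61 and 6.98). Acacb, Cidea and Pnpla2 had none.

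Genes of sterol synthesis and fatty acid oxidation were also bound. Of 21 cholesterol synthesis genes 13 had a peak, including Fdft1, squalene synthase (6.95 and 6.77), and Srebf2, the sterol-sensing transcription factor (5.86 and 5.38). Pmvk, Mvd, Idi1, Sqle, Lss, Cyp51, Msmo1 and Nsdhl had none. Of 25 oxidation genes 18 had a peak, led by the thiolase Acaa1b (6.62 and 6.81), Creb3l3 (6.49 and 6.09) and Ppara, the fatty acid sensing receptor (6.42 and 5.94). Hadha, Hadhb, Acaa1a, Acaa2, Cyp4a10 and Cyp4a14 had none, and each of these had a WT peak. Over all lists, 57 of 438 genes were assigned a peak in the WT list alone. The WT list is longer (20040 against 12495 peaks), and no difference in binding was tested.

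Glucose and insulin genes included Slc2a2, the glucose transporter GLUT2 (7.59 and 7.59), Pck1, the cytosolic PEPCK of gluconeogenesis (7.45 and 7.11), and Ppp1r3b, a glycogen-targeting phosphatase subunit (7.30 and 7.25, 169 kb from its TSS). Of 19 such genes 15 were bound, with Pklr, Pfkfb1, Pygl and Crtc2 unbound. Insulin signalling genes were bound in 13 of 17 cases, led by the kinase gene Sik1 (7.50 and 7.03), Foxo3 (7.24 and 6.70) and the PI3-kinase subunit gene Pik3r1 (6.31 and 6.24). Gsk3b, Mtor, Tsc1 and Tsc2 had none. Of 13 genes of growth hormone signalling 10 were bound, led by the feedback inhibitor Socs3 (7.44 and 7.15), Stat5b (7.36 and 7.23) and Cux2, a female-biased repressor in liver (7.06 and 7.21). Jak2, Stat5a and Socs2 had none.

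Detoxification genes were bound in 13 of 20 cases for cytochromes P450 and 13 of 19 for conjugation. The first were led by Por, the electron donor of microsomal P450s (7.01 and 6.98), Cyp3a25 (6.83 and 7.09) and Cyp3a11 (6.25 and 6.21). Cyp1a2, Cyp2b9, Cyp2c37, Cyp2c54, Cyp2d9, Cyp4v3 and Cyp17a1 had none. The second were led by Gclm of glutathione synthesis (7.35 and 7.02), the bilirubin transferase Ugt1a1 (6.64 and 6.07) and Gstz1 (6.37 and 6.33). Ugt2b5, Ugt2b34, Sult1a1, Sult1d1, Gsta1 and Gstp1 had none. Names in the Cyp3a and Ugt1a families stand for clustered or overlapping genes, so assignment among family members is uncertain.

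Genes for secreted proteins were bound in 25 of 30 cases for coagulation and complement and 20 of 23 for acute phase and plasma proteins. C3 was joined by the fibrinogen chain Fgb (8.03 and 7.85) and antithrombin Serpinc1 (7.55 and 7.44), while F9, F11, F12, C9 and Mbl2 had none. Rbp4, the retinol carrier, had 7.34 and 7.61 at its promoter with a high input of 5.47, followed by transferrin Trf (6.94 and 6.99) and Itih3 (6.80 and 6.92). Hpx, Serpina3k and Lcn2 had none.

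Amino acid genes included Ass1 of the urea cycle (7.72 and 7.67), Tat, tyrosine aminotransferase (6.62 and 6.58), and Asl (6.73 and 6.27), with 15 of 18 bound and Glud1, Tdo2 and Sds unbound. Methionine and one-carbon genes were bound in 11 of 16 cases. Pemt, which methylates phosphatidylethanolamine to phosphatidylcholine, had 8.35 and 8.48 at its promoter, and Cth, which makes cysteine from cystathionine, had 8.50 and 8.31 at 1.14 kb upstream. Sardh was at 7.47 and 7.29. Mat1a, Bhmt2, Mtr and Dmgdh were among those with none.

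Transcription factor genes were grouped by role. Of 20 hepatocyte factors only Hnf4g and Cebpd lacked a peak. Prox1 (7.41 and 7.17), Foxa2 (6.89 and 6.68, 103 kb from its TSS) and Onecut2 (6.64 and 6.41) were highest. Nuclear receptor genes were bound in 21 of 27 cases, led by the xenobiotic receptor PXR gene Nr1i2 (8.25 and 8.10), Rara (7.41 and 7.14) and Nr2f2 (6.99 and 6.76). Nr1i3, Nr1h2, Rarb, Vdr and Thra were among those with none. Clock genes were led by Bhlhe40 (7.79 and 7.58), Per2 (7.50 and 7.32) and Per3 (7.41 and 7.09, input 3.94), and Clock and Ciart had none.

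Stress and degradation genes had a few strong peaks. The autophagy adaptor gene Sqstm1 was at 8.35 and 8.31, Uvrag at 7.35 and 7.07 and Atg5 at 6.42 and 6.36 (input 4.33), while Ulk2, Atg7, Atg10, Atg12, Map1lc3a, Gabarapl1, Tfe3, Lamp1, Lamp2 and Ctsd had none. Of 23 genes of the unfolded protein and stress responses 17 were bound, led by Herpud1 (7.43 and 7.39), Gadd45b (7.38 and 7.20) and Gadd45a (6.52 and 6.44). Hspa5, Eif2ak3, Trib3, Dnajb9, Sesn2 and Txnrd1 had none.

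Markers of hepatocytes were checked against those of other cells. All 8 hepatocyte markers had an LKO peak, among them Alb (6.73 and 6.64, 21.5 kb upstream) and Apoa1 (5.46 and 5.54, 64.9 kb upstream). Of the markers of other cells, 1 of 7 for cholangiocytes (Epcam), 1 of 8 for Kupffer cells and macrophages (Csf1r, 6.31 and 5.61), 5 of 8 for sinusoidal endothelium, 2 of 8 for stellate cells, 1 of 6 for lymphocytes and 1 of 8 for neurons had one, beside 27.1% of all protein-coding genes. Within 10 kb of the TSS, 5 of 8 hepatocyte and 2 of 8 endothelial markers had one, beside 16.5% of all protein-coding genes. So did 1 marker each of Kupffer cells and macrophages, stellate cells and lymphocytes, and none of cholangiocytes or neurons. Krt7, Krt19, Clec4f, Timd4 and Cd3e were among the markers with none at any distance. In whole liver, the cell type that gave a peak cannot be told apart. The endothelial markers with a peak were Lyve1 (4.91 and 4.25), Stab1 (4.64 and 4.37), Cdh5 (4.04 and 4.63), Oit3 (4.18 and 3.54) and Kdr (3.92 and 3.34).

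The listed genes were also looked up in the WT list. Of the 438 genes, 320 were assigned a peak in both lists, 8 in the LKO list alone, 57 in the WT list alone and 53 in neither. The names assigned in the LKO list alone were Hsd3b7, Fabp6, Kdm1a, Elovl6, Dgat1, Cd36, Wipi1 and Ddit3, and the Elovl6 peak nevertheless overlapped a WT peak. The lists were made separately and have different lengths (12495 and 20040 peaks). These counts alone do not show a difference in binding, and none was tested. Of the promoter peaks in LKO liver 81.7% overlapped a WT peak by at least 1 bp, against 78.9% of intron peaks and 79.2% of intergenic peaks.

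The IR1 motif was the leading pair of hexamers at these peaks. At most 2 mismatches within 100 bp of the centre were found in 2028 peaks (16.2%, 15.6 to 16.9%) and in 0.98% of 24990 windows of the same width 2 kb away, a 16.6-fold difference. Sites were central, with a median of 14 bp from the peak centre and 72.9% within 25 bp. An exact match was present in 36 peaks, and 408 more had 1 mismatch. Other spacings of the inverted repeat ranged from 2.17% (4 bases) to 3.87% (8 bases).

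Direct and everted repeats of the same hexamer, searched on both strands, also exceeded the windows away from the peaks. The direct repeat with a 1-base spacer was found in 11.9% of peaks against 3.30% of windows (3.60-fold), and the other direct repeats lay between 6.15% and 8.68% of peaks. The everted repeat with 2 bases was in 6.02% against 1.505% (4.0-fold). The single hexamer AGGTCA, which all of these repeats contain, was present exactly in 41.3% of peaks against 13.2% of windows. These searches overlap, and a match is a description of letters and not a bound site.

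**Figure D5:**
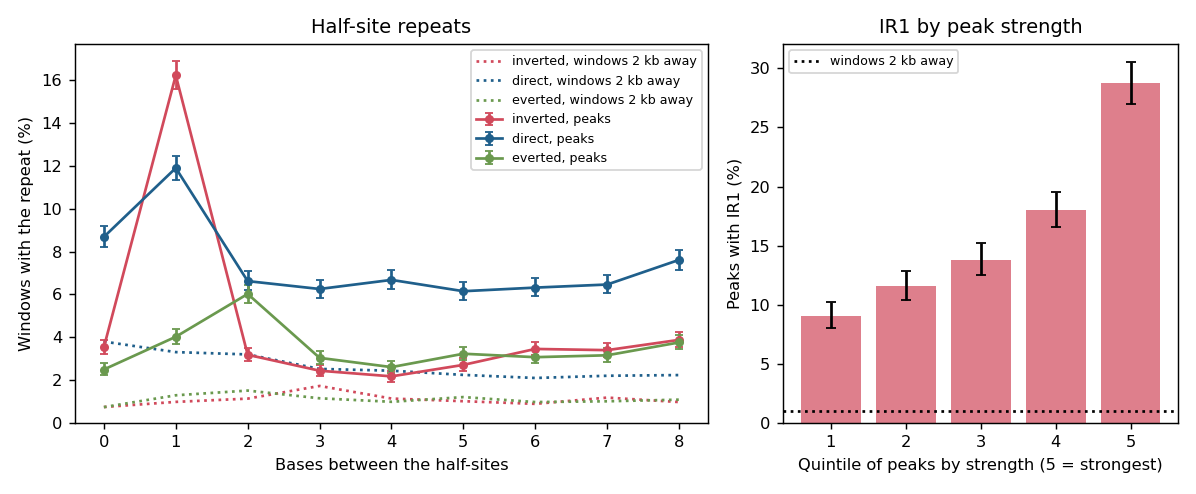
Left, percent of windows (y axis) holding an inverted, direct or everted repeat of AGGTCA with at most 2 mismatches, by spacer length in bases (x axis), in LKO peaks (points, 95% Wilson intervals) and in windows 2 kb away (dotted). Right, percent of peaks with IR1 by quintile of peak strength (5 strongest), which rises from 9.04% to 28.7% against 0.98% in windows 2 kb away.

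IR1 was more frequent where FXR signal was higher. From the weakest to the strongest quintile its share was 9.04%, 11.6%, 13.8%, 18.01% and 28.7% (27.0 to 30.5%). Peaks with an exact site had median ChIP values of 5.37 and 5.27, those with 1 mismatch 5.45 and 5.24, those with 2 mismatches 5.27 and 5.08, and those whose best match had 4 mismatches 4.77 and 4.57. Peaks with 1 site were at 5.30 and 5.11 and the 46 peaks with 2 sites at 5.79 and 5.63. Among the 20 strongest peaks 5 held a site, and the other 15 did not.

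Promoters held fewer IR1 sites, although their peaks were stronger. The share was 8.39% (7.05 to 9.96%) in promoter peaks, 16.6% (15.5 to 17.7%) between genes, 17.5% (16.5 to 18.5%) in introns and 22.1% (18.2 to 26.5%) in exons. Mismatches were not spread evenly over the motif. They were most frequent at positions 4 and 10, the fourth base from each outer end, in 25.5% and 25.3% of sites, and at the outermost positions 1 and 13 in 20.3% and 18.8%. Position 2 was mismatched in 8.48%, and each of the 4 bases was the spacer in 24.95 to 25.05% of sites. The motif reads the same on both strands, so near-equal rates at paired positions follow from the search. So do near-equal shares of A and T, and of C and G, at the spacer.

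IR1 counts of gene groups rested on few peaks, no difference was tested, and the share over all peaks was 16.2%. The motif was in 12 of 42 peaks of FXR feedback genes (28.6%, 17.2 to 43.6%), 10 of 41 of bile acid transport (24.4%, 13.8 to 39.3%), 8 of 30 of bile acid synthesis (26.7%, 14.2 to 44.4%) and 19 of 74 of lipoprotein genes (25.7%, 17.1 to 36.7%). It was in 2 of 63 peaks of hepatocyte transcription factors (3.17%, 0.87 to 10.9%) and 1 of 45 of unfolded protein and stress genes (2.22%, 0.39 to 11.6%). Taking the strongest peak of each gene, 8 of 12 feedback genes, 5 of 14 transport genes and 3 of 13 synthesis genes held a site. The share over the strongest peaks of all genes is not given here. The 16.2% is no base for these counts, since IR1 was in 28.7% of peaks of the strongest quintile. The best match had 5 mismatches in the strongest peaks of Cyp7a1, Cyp8b1 and Slc10a1, and 4 in those of Nr0b2 and Akr1d1.

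Words of other hepatic factors were searched exactly and on both strands, and were chosen after earlier results of these data were known. The forkhead word TGTTTAC was in 6.75% of peaks against 2.81% of windows, the C/EBP word TTGCNNAA in 15.2% against 7.52%, the AP-1 word TGANTCA in 8.33% against 5.77%, the E-box CACGTG in 4.59% against 2.79% and the NR5A word TCAAGGTCA, which contains the hexamer, in 1.04% against 0.59%. Unlike IR1, the forkhead word was not more frequent in the strongest quintile (5.48%) than in the weakest (7.08%).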

How the data were processed

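FXR ChIP-seq of LKO liver (2 ChIP libraries, 1 input) was taken from the deposited peak table. Per the labels and methods, the authors crosslinked liver with 2 mM DSG and 1% formaldehyde, used 5 ug of antibody E4B8P, and aligned 100 bp single-end reads to mm10. The submitters' processing notes name Bowtie 1.2 and HOMER 4.10. Peak calling by the authors, per the file headers, set the pooled ChIP libraries against input and retained peaks at a false discovery rate of 0.05 and a log2 ratio above 1. The deposited values, headed as tag counts, hold negative and fractional numbers and were taken as regularized log2 tags. The deposited peak score is a signal, pooled tags per 10000000. Columns of the authors' own ChIP against input comparison (fold change, p-value) were not used. Genotypes were normalized separately, so the WT list was used only for overlap and gene names.

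Values were described per library with no test between genotypes. The peaks, lists and words were chosen with earlier results of these data known. Named genes were all members of the 3 bile acid and feedback lists, the 20 strongest peaks, the 10 genes with most peaks, the 3 genes with the strongest peaks and all unbound genes of each other list, and Bcl6. A few genes that this rule names are counted in the totals but not reported here. Genes were matched by Entrez ID to RefSeq (GRCm38.p6), whose chromosomes held all peaks. The TSS distance matched within 2 bp for 87.5% of peaks. Intervals are 95% Wilson intervals. The code, tested on simulated data, ran in Python 3.11.15 with scipy 1.17.1, pandas 2.3.3, numpy 2.4.6 and, for plots, matplotlib 3.10.9. Alternatives covered peak strength, input, libraries, TSS assignment and motif limits.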

Additional observations from a re-analysis of the deposited data

How the results depend on the processing

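Of 32 alternative settings, 17 left their value within its interval, its spread between libraries or 1.5 times its count, and 15 moved it. The values were counts, shares, an SD and a difference on which the list was filtered, so none could change sign. Keeping only peaks from the median strength upwards moved the median ChIP minus input from 4.38 to 4.99, the SD between ChIP libraries from 0.45 to 0.35, the share within 10 kb of a TSS from 42.4% to 44.2%, the promoter share from 11.3% to 12.8%, genes with 5 or more peaks from 361 to 79, and the IR1 share from 16.2% to 21.5%. Leaving out peaks above the 95th percentile of input moved the SD to 0.46 and the promoter share to 10.5%. A scaled median absolute deviation gave 0.42. The nearest RefSeq TSS put 43.5% within 10 kb, and the strongest peak per gene put 14.7% in promoters. IR1 fell to 3.55% with at most 1 mismatch, 0.29% with none and 14.6% within 50 bp. With ChIP minus input, 8 of the 20 strongest peaks stayed. Leaving out 1 ChIP library gave a median ChIP minus input of 4.32 to 4.51 and kept 18 to 19 of the 20 strongest peaks. Listed genes with a peak ranged from 252 to 322 of 438. Any peak within 10 kb of a RefSeq TSS, whatever its assigned gene, marked 64.8% of listed and 20.7% of all protein-coding genes. The cause of each change beyond its construction was not tested. No paired analysis was possible because the list covers a single genotype.

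With 2 ChIP libraries and 1 input of 6935001 tags, spread between mice and input error at single peaks could not be estimated. The list held only peaks that had passed a filter, so the absence of a gene means no listed peak and not no binding.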

Other observations

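FXR peaks were unevenly spread over the chromosomes of LKO liver. Chromosomes 19 and 11 had 7.76 and 7.47 peaks per Mb, chromosome 3 had 3.39, and the X chromosome had 0.51 (88 peaks over 171 Mb). The X chromosome carried 966 protein-coding genes, near the 983 of chromosome 3. The same chromosomes were highest and lowest in the WT list, at 12.8, 11.9 and 1.05 peaks per Mb for chromosomes 19, 11 and X. The median strength of the X-linked peaks was 4.62 against 4.75 over all peaks. The males carry a single X, and no comparison with females was analysed here. The cause of the low density on the X chromosome was not tested, and input by chromosome was not examined.

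Of all peaks, 4 held 3 or more IR1 sites, and their strength varied widely. An intron of Gmeb2 held 4 sites at 4.86 and 4.88, with 69.9% of its bases equal at a shift of 29, and an intron of Pomgnt2 held 4 at 3.84 and 3.12. The Fcna promoter and a peak 219 kb from Mir148a held 3 each, at 8.69 and 8.65 and at 5.30 and 5.87. These 4 peaks were noticed after their values were seen.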
